A study of Glycine max and Glycine soja with 189 samples.

Results

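The transcripts described here are those whose mean level was highest at T1 (6:30, just before the lights came on) under short days as well as under long days, a set of 57 transcripts of 43 loci among 73319 transcripts of 54174 loci. They were chosen on the RPKM values of the SD and LD libraries, which are read numbers scaled to the length of the transcript and to all mapped reads of the library. For each photoperiod and time point the mean of 21 libraries was taken as log2(1 + mean RPKM), and T1 had to lie at least 1 above both later time points, T3 at 14:30 and T5 at 22:30, first under SD and again under LD. Since 69 transcripts met this margin, the limit of 200 members was not reached. Of these, 12 transcripts of 3 loci were left out by locus name, as the rule required, which left the 57 members.

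The libraries came from soybean, 3 for each of 63 groups made of 3 photoperiod treatments, 7 genotypes and 3 time points. In LD-SD (the shift treatment) plants had 21 days of LD followed by 5 days of SD, SD plants had 10 h of light a day, and LD plants had 16 h, with the lights coming on at the same clock time throughout. T1 thus fell at the end of the night in each treatment and T3 in the light, while T5 fell in the night in LD-SD and SD plants and shortly before lights off in LD plants. The sample labels give the tissue as the first trifoliate at 26 days, whereas the methods of the study describe the whole shoot above the cotyledon at 3 weeks. The libraries were bulk samples, so fewer cells of a type and less RNA per cell cannot be told apart, and tissue markers were not tested because the loci could not be paired with gene names.

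The genotypes were the cultivars Clark and Williams 82, 4 near isogenic lines of Clark that differ in maturity (E) loci, and *Glycine soja*, the wild relative. Clark carries recessive e1 and e5 with dominant E2, E3, E4 and E7. ClarkNIL-L65-3366 (L65) has dominant E1, ClarkNIL-L66-432 (L66) recessive e2, ClarkNIL-L74-441 (L74) recessive e3, and ClarkNIL-L92-1195 (L92) recessive e3 together with dominant E5, with the other alleles as in Clark. For Williams 82 only E2 is given, and for *G. soja* no allele. Each near isogenic line is a single inbred line, so other introgressed segments cannot be told apart from the named allele. The 3 libraries of a group are called biological replicates in the labels, and p-values measure only the spread between these samples.

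Many plant transcripts follow the circadian clock, a feedback loop of transcription factors that is reset by light and keeps time through the night. Transcripts that accumulate late in the night are already abundant when the lights come on, and their decline runs over the following light period. In soybean, a short-day plant, the length of the night sets the time of flowering, and the E loci carry alleles that alter this response. None of the loci described here could be matched to a named gene in the table at hand, so no role is given for any of them.

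The libraries held 4.92 to 18.2 M mapped reads each (median 9.54 M), with medians of 9.13 M in LD-SD, 9.34 M in SD and 9.67 M in LD. In 8 libraries, 4 of LD-SD and 4 of LD at T1 (replicate A of Clark, Williams 82, L65 and L66), genotype markers went against the label. Those of LD-SD were replicate B of L74 at T3, B of L66 at T5, and B and C of L74 at T5. Most L74 libraries at T5 in LD-SD were thus of doubtful genotype. In addition, 1 LD-SD library of L92 at T5, whose replicate letter is unclear, correlated better with another time point than with its own. In that library 46 members were above every other T5 library of LD-SD and 34 were above the T1 median of LD-SD, and LD-SD values at T5 hold this library unless they are said to be without it.

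Under SD and LD the course of the day is what the rule used and is given as a description. Averaged over 21 libraries, the levels of the median member at T1, T3 and T5 were 15.6, 3.56 and 0.431 RPKM under SD, against 13.6, 1.22 and 2.95 RPKM under LD. The low point thus lay at a different time of day in the 2 photoperiods, at T5 in 51 members under SD and at T3 in 49 members under LD. The mean at T1 was 3.98 times that at T3 and 33.4 times that at T5 in the median member under SD, against 14.6 times and 3.44 times under LD. Margins ran from 1.01 to 3.71 under SD and from 1.05 to 4.82 under LD, and 19 members had the larger margin under SD.

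**Figure D1:**
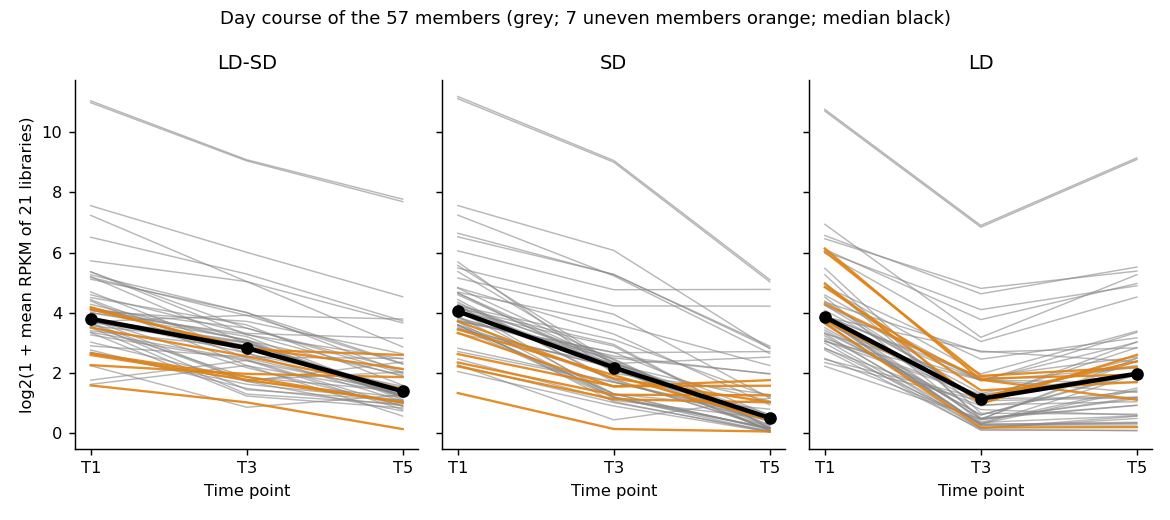
Mean level of each of the 57 members at T1, T3 and T5 in LD-SD, SD and LD, as log2(1 + mean RPKM of 21 libraries); grey lines are members, orange lines the 7 members with uneven T1 values, and black the median. Most SD lines fall to T5 while most LD lines reach their lowest level at T3, and the median LD-SD line falls to T5.

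In 36 members under SD every T1 library was above every T3 and T5 library, which held for 1.11% of all transcripts, and in LD this was so for 28 members, against 0.476% of all transcripts. The rule chose the members on these same libraries, so these counts and the genotype counts that follow are a description. The peak at T1 was shared widely among genotypes. Genotype means peaked at T1 in each of the 7 genotypes for 51 members under SD and 49 under LD. At their low points many members were close to the limit of counting, since 20 members had 3 reads or fewer in most of the SD libraries at T5 and 7 did so in LD at T3. A single member, Glyma05g04190.1, was that low at T1 too.

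Glyma18g03870.1 led the list with margins of 2.73 under SD and 3.94 under LD. Its lowest, median and highest levels at T1 were 10.4, 19.97 and 31.2 RPKM under SD, against 13.7, 21.9 and 35.7 RPKM under LD. At T3 the range was 0.926 to 3.94 RPKM under SD and 0.0524 to 0.751 RPKM under LD, and at T5 no library of either photoperiod exceeded 1.74 RPKM. T1 libraries therefore did not overlap with those of the other time points.

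Glyma02g41810.2 combined a margin of 2.58 under SD with the largest one seen under LD, 4.82. It had 8.10, 20.2 and 26.8 RPKM (lowest, median, highest) at T1 under SD and 28.9, 43.9 and 55.9 RPKM under LD, so the T1 ranges of the photoperiods did not overlap. Its T3 and T5 levels stayed at or below 4.07 RPKM under SD and 1.58 RPKM under LD.

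Glyma15g36790.2 showed a different balance. At T1 it had 18.7, 24.5 and 29.8 RPKM under SD and 4.99, 11.4 and 17.97 RPKM under LD, and at T3 3.49 RPKM (median) under SD and 0.241 RPKM under LD. At T5 the order of the photoperiods turned, with a median of 0.0684 RPKM and a highest value of 0.164 RPKM under SD, against 1.73 and 3.05 RPKM under LD. Glyma11g25860.1 followed the same pattern at T3 and T5, with medians of 4.53 and 0.117 RPKM under SD and 0.358 and 1.05 RPKM under LD.

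By level, Glyma18g04081.1 stood far above the other loci. Its mean at T1 was 2327 ± 413 RPKM under SD and 1729 ± 343 RPKM under LD (standard deviation over 21 libraries, as for the other means), rank 9 and rank 10 of all transcripts. The next most abundant loci at T1 in LD-SD were Glyma15g03400.1, with 188 ± 19.3 RPKM in SD plants against 87.2 ± 22.2 RPKM in LD plants, and Glyma04g42840.1, with 151 ± 15.6 RPKM in SD plants against 68.2 ± 11.9 RPKM in LD plants. At the other end of the list, Glyma01g40010.1 (smaller margin 1.0067) and Glyma08g20360.2 (1.0052) were just inside the threshold, while Glyma09g39890.1 (0.9862) and Glyma06g10880.1 (0.9813) were just outside.

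The LD-SD libraries took no part in the choice of members and so allow a test of the same pattern. After 5 short days the mean of 54 members still peaked at T1, as did that of 25.1% of all transcripts, and 29 members kept a margin of at least 1, which 0.894% of all transcripts did. With limma on log2(RPKM + 1), averaged over the genotypes, 49 of 57 members were higher at T1 than at T3 and than at T5 (adjusted p below 0.05 for both, Benjamini-Hochberg over all transcripts tested), against 8.99% of all transcripts tested. Differences are on this scale throughout, which understates the change of transcripts with low RPKM. T1 exceeded T3 in 49 members (25.8% of all transcripts) and T5 in 54 members (12.2% of all transcripts). Leaving out the L92 library of unclear letter gave 50 members higher than at T3 and T5, and leaving out the 8 libraries of doubtful genotype as well gave 50. Shares of all transcripts tested by limma are from fits with every library, here and below. For fits that left libraries out they were not counted.

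The median difference among members was 1.16 for T1 minus T3 and 2.99 for T1 minus T5, where over all transcripts tested it was −0.04 and −0.13. In RPKM the T1, T3 and T5 means of the median member were 13.0, 6.15 and 1.64, the last being 0.941 without the unclear library. T1 was 2.37 times T3 and 8.24 times T5 in the median member, and 19.4 times T5 without that library. At T5 17 members had 3 reads or fewer in most of the LD-SD libraries, so their T1 to T5 ratios are loosely known. Every T1 library lay above every T3 and T5 library in 7 members (0.314% of all transcripts), and in 17 members without the unclear library (0.533% of all transcripts). Those 7 were Glyma05g00970.1, Glyma06g20950.1, Glyma04g33410.2, Glyma17g10920.3, Glyma04g42840.1, Glyma02g12081.1 and Glyma15g03400.1.

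**Figure D2:**
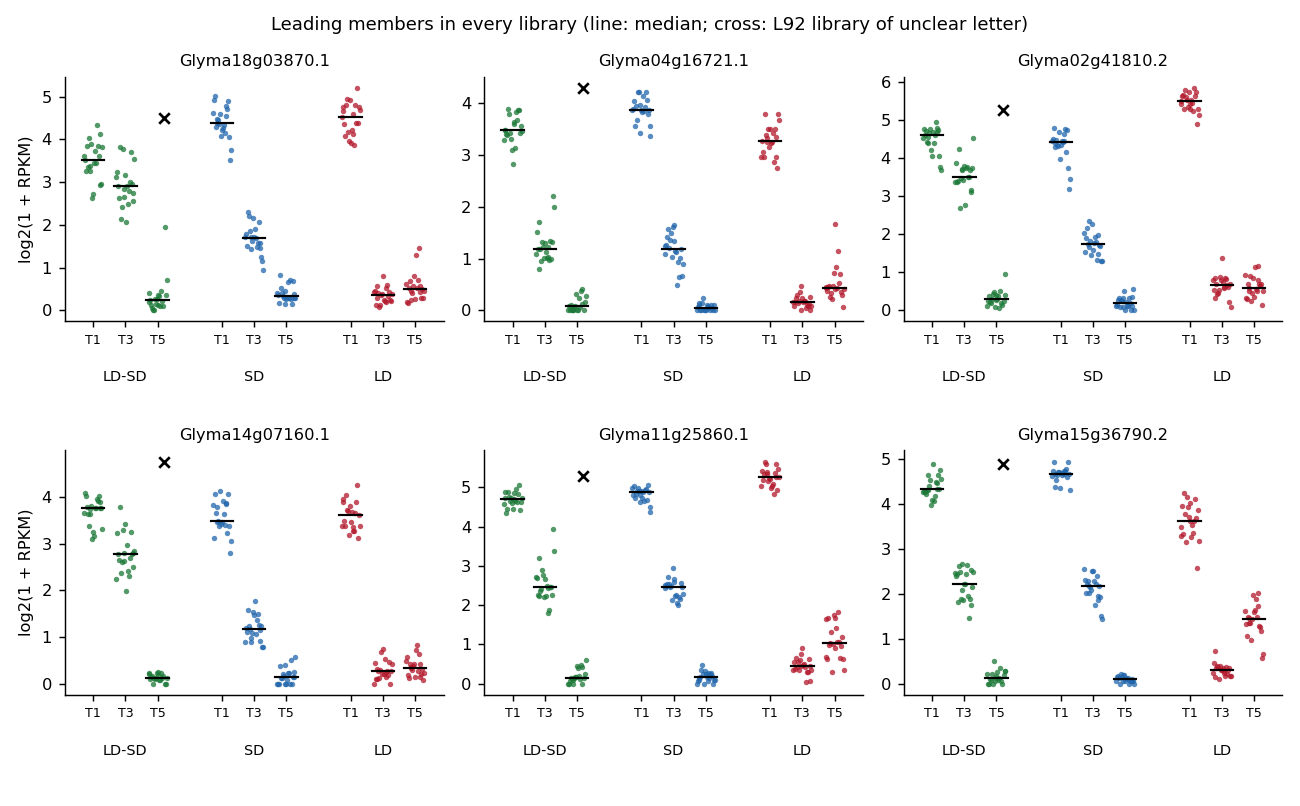
Level in every library, as log2(1 + RPKM), of the 6 members with the largest smaller margin (1 transcript a locus) at T1, T3 and T5 in LD-SD, SD and LD; bars are medians of 21 libraries and the cross is the L92 library of unclear letter. In LD-SD the T3 values of Glyma18g03870.1, Glyma02g41810.2 and Glyma14g07160.1 reach into the T1 range, and the cross lies above every T1 value of LD-SD in the 6 members.

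In several of the leading members T3 was high in LD-SD. Glyma18g03870.1 had 5.15, 10.4 and 19.2 RPKM (lowest, median, highest) at T1 in LD-SD and 3.17, 6.47 and 13.2 RPKM at T3, with overlapping ranges. At T5 its median was 0.177 RPKM, with 21.5 RPKM in the unclear library and at most 2.86 RPKM in the others. T1 exceeded T3 by 0.58 ± 0.21 (SE, log2 scale, limma adjusted p = 0.0126) and T5 by 2.99 ± 0.21, or 3.20 without the unclear library. The difference from T3 missed the threshold when replicate A (adjusted p = 0.11) or replicate C (adjusted p = 0.35) of every group was left out.

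Glyma02g41810.2 and Glyma14g07160.1 were similar in this respect. The levels of Glyma02g41810.2 were 11.9, 23.2 and 29.8 RPKM at T1, 5.46, 10.3 and 21.9 RPKM at T3, and a median of 0.222 RPKM at T5, and those of T1 and T3 overlapped. Its T1 minus T3 difference was 0.93 ± 0.21 (limma adjusted p = 0.00016) and its T1 minus T5 difference 3.92 ± 0.21, or 4.165 without the unclear library. For Glyma14g07160.1, whose medians in the same order of times were 12.5, 5.84 and 0.0952 RPKM, the differences were 0.91 ± 0.19 (limma adjusted p = 6.7e-05) and 3.33 ± 0.19, the second being 3.55 without the unclear library.

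In other members T3 was already low. Glyma17g10920.3 had the largest T1 minus T3 difference, 2.25 ± 0.16 (limma adjusted p = 3.0e-17), and a T1 minus T5 difference of 4.16 ± 0.16, or 4.32 without the unclear library, with 26.4, 35.2 and 56.2 RPKM at T1, 3.24, 6.54 and 11.1 RPKM at T3 and T5 values of at most 3.00 RPKM apart from 17.6 RPKM in the unclear library. Glyma04g16721.1 followed with 6.08, 10.1 and 13.7 RPKM at T1 and 0.746, 1.27 and 3.65 RPKM at T3, a difference of 2.23 ± 0.17 (limma adjusted p = 1.9e-16). These 2 members showed the direction in each of the 7 genotypes.

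Glyma11g25860.1 had the largest T1 minus T5 difference, 4.25 ± 0.21 (limma adjusted p = 2.5e-22), or 4.49 without the unclear library. Its levels were 19.4, 25.2 and 32.1 RPKM at T1, 2.46, 4.51 and 14.4 RPKM at T3, and at most 0.510 RPKM at T5 apart from 38.0 RPKM in the unclear library. Glyma15g36790.2, at 14.7, 19.1 and 28.5 RPKM at T1 and 1.76, 3.65 and 5.37 RPKM at T3, differed by 2.17 ± 0.20 from T3 and by 3.999 ± 0.20 from T5, or by 4.23 from T5 without the unclear library. T1 and T3 did not overlap in either of these members.

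Among the 7 members whose T1 libraries all lay above the others in LD-SD, 4 are described here for that reason, after their values were seen. Glyma04g33410.2, which had the largest margin under SD (3.71), had 31.3, 40.2 and 52.2 RPKM (lowest, median, highest) at T1, 5.86, 8.56 and 12.02 RPKM at T3, and at most 6.08 RPKM at T5 apart from 22.5 RPKM in the unclear library. Glyma06g20950.1 reached 30.5, 40.7 and 49.8 RPKM at T1 and no more than 14.0 RPKM at T3. Both therefore kept a gap between T1 and the later times even with the unclear library, which held the highest T5 value in each.

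The remaining members of this kind described here were less abundant. Glyma05g00970.1 had 13.3, 17.9 and 31.7 RPKM at T1, 4.50, 7.15 and 12.2 RPKM at T3 and a median of 0.516 RPKM at T5. Glyma02g12081.1 had 8.95, 11.5 and 15.7 RPKM at T1 and 0.997, 1.82 and 2.61 RPKM at T3, a difference of 2.204 ± 0.12, with at most 1.88 RPKM at T5 apart from 8.12 RPKM in the unclear library. In all of these 4 members the T1 range began above the highest T3 and T5 values.

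The most abundant loci at T1 in LD-SD were the 3 given above for SD and LD. Glyma18g04081.1 averaged 2105 ± 406 RPKM at T1 (rank 11 of all transcripts), 542 ± 233 RPKM at T3 and 107 RPKM at T5 without the unclear library. In the same order of times, Glyma15g03400.1 averaged 188 ± 26.9, 63.6 ± 11.99 and 18.3 RPKM and Glyma04g42840.1 averaged 150 ± 17.7, 31.9 ± 7.15 and 8.99 RPKM, in each case without that library at T5. The T1 minus T3 differences of these 3 were 2.05 ± 0.22, 1.56 ± 0.12 and 2.22 ± 0.14 on the log2 scale.

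**Figure D3:**
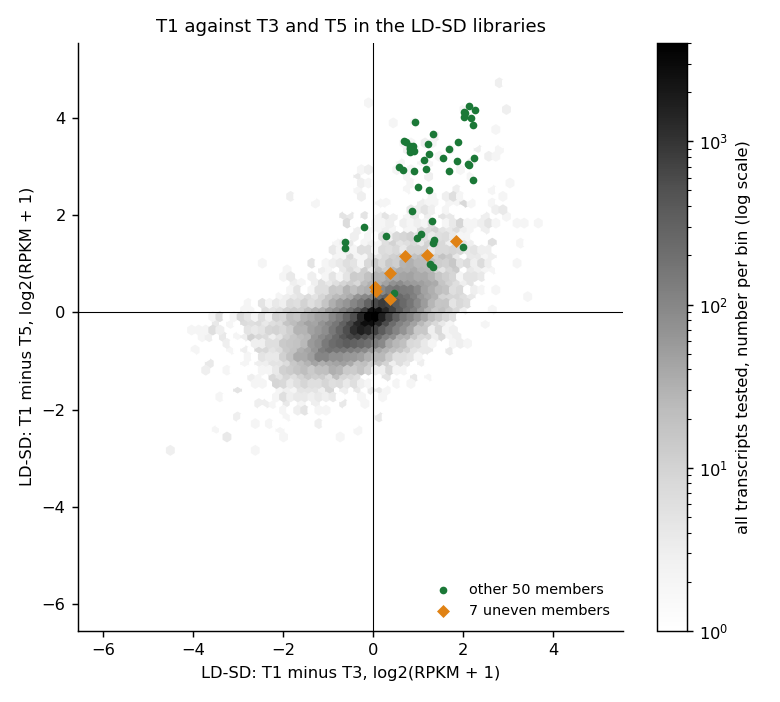
Difference T1 minus T3 (horizontal) and T1 minus T5 (vertical) in LD-SD, on the log2(RPKM + 1) scale averaged over 7 genotypes, for all transcripts tested (grey, number per bin on a log scale), the 7 members with uneven T1 values (orange) and the other 50 (green). All members lie above 0 on the vertical axis and 3 lie left of 0 on the horizontal axis.

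Of the 8 members that were not higher at T1 than at T3 in LD-SD, 2 were lower at T1, a direction found in 37.5% of all transcripts. They were the 2 transcripts of Glyma11g34470. Glyma11g34470.1 had 1.16, 2.32 and 5.16 RPKM at T1 and 2.12, 3.59 and 7.85 RPKM at T3, and fell by 0.63 ± 0.17 (limma adjusted p = 0.0015), in each of the 7 genotypes. Glyma11g34470.2 fell by 0.62 ± 0.16 (limma adjusted p = 0.00072). Without replicate B of every group neither passed the test, with adjusted p = 0.21 and 0.20 (limma). The order of these times was the opposite both under SD and under LD, as the rule required. The smaller margins of the 2 transcripts were 1.14 and 1.24. Under LD Glyma11g34470.1 had a median of 6.50 RPKM at T1 and 0.0832 RPKM at T3.

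Glyma18g44510.1 peaked at T3 in LD-SD as well, with 12.6 RPKM at T1 and 14.1 RPKM at T3 (medians), but the difference of −0.20 did not pass the test (limma adjusted p = 0.27, or 0.047 without the unclear library). Glyma01g03090.1, with 13.8 RPKM at T1 and 11.7 RPKM at T3, had a difference of 0.29 (limma adjusted p = 0.090). The other 4 were members with uneven T1 values, described further on. T1 and T5 were not told apart in 3 of these 4, Glyma05g04190.1, Glyma11g14160.1 and Glyma09g31640.1.

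The pattern in LD-SD can be set beside that of similarly chosen lists. Of 67 transcripts that peaked at T1 under SD and T5 under LD, 63 were higher at T1 than at T3 and T5 in LD-SD (8.99% of all transcripts tested). Of 200 that peaked at T3 under SD and T1 under LD, 191 were lower at T1 than at T3 in LD-SD (37.5% of all transcripts tested). The same held for 76 of 77 that peaked at T3 under SD and under LD. Most members and most transcripts of the first list were thus higher at T1 after the shift. The lists were chosen on the same SD and LD libraries, and the difference between lists was not tested.

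Levels were then compared between photoperiods at each time point. The rule did not use these differences, but the SD and LD libraries are the ones that chose the members, and the comparisons share libraries with one another. At T1, 31 members were higher under SD than under LD (33.0% of all transcripts tested) and 16 were lower (28.9%), so the share lower was close to that of all transcripts. At T3, 43 members were higher under SD (20.3%) and 2 were lower (43.6%). At T5, 1 member was higher under SD (35.3%) and 44 were lower (20.4%). The median SD to LD ratio of the members at the 3 time points in order was 1.24, 3.59 and 0.279, and the median differences on the log2 scale were 0.34, 0.99 and −0.82, against 0.02, −0.10 and 0.05 over all transcripts.

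**Figure D4:**
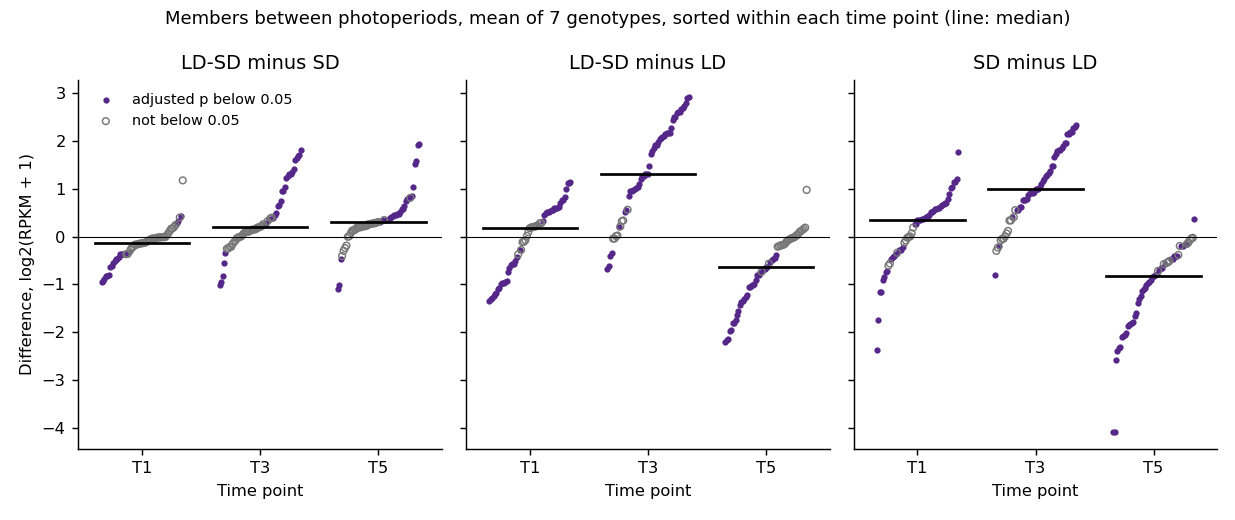
Difference of each member in LD-SD minus SD, LD-SD minus LD and SD minus LD at T1, T3 and T5, on the log2(RPKM + 1) scale averaged over 7 genotypes and sorted within each time point; filled points have an adjusted p below 0.05 and bars are medians. Most members lie above 0 at T3 and below 0 at T5 in SD minus LD.

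At T1 the largest rise under SD was that of Glyma11g35030.1. It had 10.3, 17.1 and 33.5 RPKM (lowest, median, highest) under SD and 2.03, 4.42 and 10.2 RPKM under LD, a difference of 1.76 ± 0.11 (limma adjusted p = 2.5e-27) with no overlap. Glyma17g10920.3 rose by 1.198 ± 0.09, at 33.5, 45.6 and 75.2 RPKM under SD and 8.89, 20.6 and 31.8 RPKM under LD. Among members with the same sign in the 7 genotypes, the opposite direction was seen in Glyma02g41810.2, described above, which was lower under SD (−1.16 ± 0.07), and in Glyma02g38240.1 (−0.90 ± 0.13), whose median was 3.68 RPKM in SD plants, against 7.48 RPKM in LD plants.

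At T3 Glyma14g23860.1 was present under SD at 4.60, 6.64 and 9.37 RPKM and under LD at 0.165, 0.534 and 1.02 RPKM, a difference of 2.33 ± 0.07 (limma adjusted p = 1.9e-49). Glyma19g00270.1 rose by 2.28 ± 0.17, with a median of 39.5 RPKM in SD plants, against 6.44 RPKM in LD plants, and no overlap. The 2 exceptions were Glyma02g38240.1 (−0.80 ± 0.13, limma adjusted p = 5.8e-08) and Glyma06g20950.1 (−0.20, limma adjusted p = 0.025).

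At T5 the 2 transcripts of Glyma18g04081 had the largest differences of all members. Glyma18g04081.1 had 9.39, 34.3 and 63.1 RPKM under SD and 116, 594 and 1005 RPKM under LD, and was lower under SD by 4.08 on the log2 scale (limma adjusted p = 2.1e-44), in each of the 7 genotypes. The transcript Glyma18g04081.2 differed by −4.08 ± 0.14. The only member higher under SD at this time was Glyma01g40010.1 (0.37, limma adjusted p = 0.032).

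The shifted plants were compared with plants kept in LD, from which they had been moved 5 days earlier. At T1, 21 members were higher in LD-SD than in LD (31.7% of all transcripts tested) and 21 were lower (27.1%). At T3, 45 were higher (21.6%) and 4 were lower (32.4%). At T5, 34 were lower in LD-SD (14.4%) and by limma 0 were higher (17.8%), with an unadjusted p under 0.05 for 36 members in either direction. Without the unclear library 43 were lower, and the share of all transcripts was not counted for that fit. Median differences of the members were 0.18, 1.31 and −0.64 over the 3 time points in order, and those of all transcripts 0.02, −0.04 and 0.00.

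At T1 Glyma04g42840.1 and Glyma15g03400.1 rose in LD-SD by 1.14 ± 0.10 and 1.13 ± 0.10 over LD. Glyma04g42840.1 had 124, 149 and 196 RPKM in LD-SD and 53.7, 68.8 and 101 RPKM in LD, without overlap. The locus Glyma17g14750 fell, by 1.302 ± 0.17 for Glyma17g14750.2 and by 1.28 ± 0.17 for Glyma17g14750.1 (limma adjusted p = 2.8e-11 and 4.6e-11). Glyma17g14750.2 had 10.1, 21.2 and 40.4 RPKM in LD-SD and 29.2, 45.5 and 215 RPKM in LD.

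The rise at T3 was larger. Glyma06g13100.4 had 4.71, 10.0 and 20.4 RPKM in LD-SD and 0.113, 0.390 and 0.683 RPKM in LD, a difference of 2.92 ± 0.15 (limma adjusted p = 1.6e-37). Glyma02g41810.2 had 10.3 RPKM in LD-SD and 0.596 RPKM in LD (medians), a difference of 2.90 ± 0.14. At T5 Glyma17g10920.3 (−1.95 ± 0.12) and Glyma17g14750.2 (−1.81 ± 0.17) decreased relative to LD with the same sign in the 7 genotypes, with medians of 0.784 and 5.66 RPKM in LD-SD and 7.07 and 26.8 RPKM in LD. Without the unclear library these differences were −2.11 and −1.87. Larger decreases, such as −2.20 for Glyma19g00270.1 and −2.14 for Glyma18g04081.1, did not have the same sign in L92, the group that holds the unclear library. In that group Glyma18g04081.1 averaged 869 RPKM in LD-SD and 663 RPKM in LD.

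Against plants grown throughout in SD, the shifted plants passed the test in 21 members at T1. Of these, 3 members were higher in LD-SD than in SD (12.7% of all transcripts tested) and 18 were lower (15.3%). At T3, 23 were higher (33.7%) and 5 lower (19.2%). At T5, 26 were higher (16.8%) and 3 lower (29.7%). Without the unclear library the counts were 20 and 4, and shares of all transcripts were not counted for that fit. Median differences were −0.14, 0.20 and 0.30 on the log2 scale at T1, T3 and T5, and over all transcripts −0.00, 0.06 and −0.05.

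The few rises at T1 were small. Glyma07g00240.1 had 21.8, 38.3 and 45.5 RPKM in LD-SD and 14.7, 28.7 and 35.1 RPKM in SD (0.43 ± 0.12, limma adjusted p = 0.0023), and Glyma05g24660.1 had medians of 13.2 RPKM in LD-SD and 10.5 RPKM in SD (0.33 ± 0.12, limma adjusted p = 0.027). Both lost the call without replicate B of every group (limma adjusted p = 0.24 and 0.52). Glyma17g14750 was again lower in LD-SD, by 0.94 ± 0.17 for Glyma17g14750.1, with medians of 33.5 RPKM in LD-SD and 65.3 RPKM in SD. Glyma18g03870.1, which led the list, was lower in LD-SD too, by 0.89 ± 0.14 against SD (limma adjusted p = 7.5e-08). Against LD its T1 level was lower by 0.97 ± 0.14 (limma adjusted p = 4.9e-10).

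At T3 the 2 largest rises over SD belonged to leading members. Glyma02g41810.2 had 10.3 RPKM in LD-SD and 2.37 RPKM in SD (medians), a difference of 1.80 ± 0.14 (limma adjusted p = 3.6e-23), and Glyma14g07160.2 had 6.37 and 1.22 RPKM, a difference of 1.69 ± 0.13. The largest decreases with the same sign in the 7 genotypes were those of Glyma17g14750.2 (−1.01 ± 0.17) and Glyma13g32970.1 (−0.83 ± 0.10), with medians of 7.15 and 2.29 RPKM in LD-SD and 17.2 and 4.74 RPKM in SD.

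At T5 Glyma18g04081.1 rose by 1.93 ± 0.17 over SD (limma adjusted p = 2.4e-18), or by 1.70 without the unclear library. Its lowest, median and highest levels in LD-SD were 35.5, 104 and 163 RPKM without that library, against 9.39, 34.3 and 63.1 RPKM in SD. Placed beside its LD median of 594 RPKM at the same time, the shifted plants stood between the SD and the LD plants. Glyma17g14750.2 was lower in LD-SD than in SD at this time too (−1.10 ± 0.17, limma adjusted p = 2.9e-08), or −1.16 without that library.

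The members were next compared among the 7 genotypes, a difference that the rule, which averages over them, did not use. An F-test over the 3 time points found differences in 2 members in LD-SD (16.6% of all transcripts tested), in 11 under SD (12.5%) and in 14 under LD (13.9%). The highest genotype mean at T1 was 1.57 times the lowest in LD-SD, 1.60 times under SD and 1.65 times under LD in the median member. Without *G. soja*, 0 members passed in LD-SD, 1 under SD and 3 under LD by limma, and 6 genotypes were then compared in place of 7. The LD-SD count was 7 without the unclear library. In LD-SD, under SD and under LD the counts were 24, 0 and 8 with all libraries in 1 fit, 14, 24 and 27 with a replicate block, and 0 to 1, 2 to 5 and 4 to 10 on leaving out 1 replicate letter, so neither the counts nor their order held across these fits. Reads had been aligned to Williams 82 transcripts, and whether sequence differences of *G. soja* affected its counts was not tested.

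Under SD the smallest adjusted p was that of Glyma18g03870.1 (1.2e-06, limma). At T1 it had 10.4 to 15.6 RPKM in *G. soja* and 15.9, 21.2 and 31.2 RPKM (lowest, median, highest) in the 6 *G. max* genotypes, the highest mean being that of Clark. The second was Glyma07g00240.1 (limma adjusted p = 0.00057), with 21.8, 14.7 and 19.3 RPKM at T1 in *G. soja*. With all libraries in 1 fit both calls were lost (limma adjusted p = 0.58 and 0.74), and that of Glyma07g00240.1 was lost without replicate C (0.27) or without *G. soja* (0.64) too. In LD-SD the 2 members were Glyma01g40010.1 (limma adjusted p = 0.00071) and Glyma17g11870.2 (limma adjusted p = 0.048). Glyma01g40010.1 had 10.8, 7.11 and 19.3 RPKM at T1 in L66, the highest T1 mean, and 5.59, 17.6 and 8.69 RPKM at T3 in *G. soja*. The call of Glyma01g40010.1 was lost without replicate A (limma adjusted p = 0.053), without replicate C (0.27) or without *G. soja* (0.28). That of Glyma17g11870.2 was lost without any one replicate letter (limma adjusted p = 0.23 to 0.66), with no filter (0.058), without the libraries of doubtful label (0.058), with all libraries in 1 fit (0.16) and without *G. soja* (0.69).

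Under LD the 2 transcripts of Glyma06g43590 had the smallest adjusted p, 1.3e-06 for Glyma06g43590.3 and 6.3e-06 for Glyma06g43590.2 (limma). At T5 Glyma06g43590.3 had 0.903, 0.519 and 0.335 RPKM in *G. soja* and Glyma06g43590.2 had 2.63, 2.42 and 0.838 RPKM. Both were below every *G. max* library at that time. The 2 calls were lost without *G. soja* (limma adjusted p = 0.062 for Glyma06g43590.3 and 0.49 for Glyma06g43590.2).

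Whether the day course itself differed among genotypes was tested as the interaction of genotype and time point. No member passed in LD-SD by limma (0 members, 2 with an unadjusted p under 0.05, and 1 passing without the unclear library), where 0.454% of all transcripts did. Under SD 1 member passed (0.440%), Glyma18g03870.1, and under LD 2 passed (0.704%), the transcripts of Glyma06g43590.

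*G. soja* was set against the mean of the 6 *G. max* genotypes at T1. In LD-SD 1 member was higher in *G. soja* (9.29% of all transcripts tested) and 0 were lower (5.67%) by limma, with an unadjusted p under 0.05 for 6 in either direction. Without the unclear library 2 were higher and 2 lower. Under SD 16 members were lower (6.40%) and 0 were higher (9.46%) by limma, with an unadjusted p under 0.05 for 21. The SD count was 5 with all libraries in 1 fit, 7 with a pseudocount of 0.1 and 5 to 17 on leaving out 1 replicate letter. Under LD 5 were higher (10.3%) and 13 were lower (15.2%), a split that became 8 and 9 with median-of-ratios scaling. The mean of *G. soja* lay below that of *G. max* in 38 members in LD-SD, 48 under SD and 31 under LD.

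Under SD the largest decrease was that of Glyma02g41810.2, with 8.10 to 12.3 RPKM in *G. soja* and 14.8, 20.8 and 26.8 RPKM in *G. max* (−0.9996 ± 0.15, limma adjusted p = 1.7e-06). Glyma02g46761.2 followed with 2.51 to 3.43 RPKM in *G. soja* and 3.67, 7.13 and 9.66 RPKM in *G. max* (−0.87 ± 0.18). In each of these members the species did not overlap.

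Under LD the locus Glyma17g14750 went the other way. Glyma17g14750.1 had 199, 244 and 304 RPKM in the *G. soja* libraries and 43.4, 66.2 and 117 RPKM in *G. max*, a difference of 1.87 ± 0.34 (limma adjusted p = 2.8e-05), and Glyma17g14750.2 differed by 1.95 ± 0.34. The 2 largest decreases, Glyma18g44510.1 (−0.9984 ± 0.24) and Glyma18g46320.1 (−0.89 ± 0.26), had overlapping ranges and lost the call without replicate C (limma adjusted p = 0.082) or without replicate A or B (0.093 and 0.14). The single call in LD-SD, Glyma01g03090.1, had 26.5, 22.8 and 37.8 RPKM in *G. soja* and at most 19.7 RPKM in *G. max* (1.06 ± 0.31, limma adjusted p = 0.013), and it was lost without any one replicate letter (0.097 to 0.19).

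Finally, 7 members were set apart after their values were seen, because their mean at T1 under LD was more than 2 times their median: Glyma19g40610.1, Glyma12g15940.1, Glyma03g38000.1, Glyma05g04190.1, Glyma03g32920.1, Glyma11g14160.1 and Glyma09g31640.1. A few libraries held much of their T1 signal, which under LD is what set them apart and is a description. The 5 highest of 21 T1 libraries held 52.5% to 98.0% of the summed RPKM of these members in LD-SD, 56.2% to 89.6% under SD and 68.5% to 95.4% under LD. In the other 50 members the shares were 27.0% to 39.6%, 26.4% to 40.7% and 28.4% to 49.8%. Single libraries were high at other times as well. At T3 in LD-SD Glyma12g15940.1 had 34.9 RPKM in L66 C and 25.7 RPKM in L92 B. At T5 under LD it had 33.2 RPKM in L74 A, where Glyma11g14160.1 had 32.5 RPKM. The LD medians of Glyma12g15940.1 were 2.05 RPKM at T1 and 3.24 RPKM at T5, and those of Glyma09g31640.1 were 2.415 and 2.846 RPKM. The other uneven members had a higher LD median at T1 than at T5. When the rule was applied to mean log values instead of the log of means, 6 of the 7 fell below the margin, among 11 members that did so, and Glyma19g40610.1 kept its place.

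**Figure D5:**
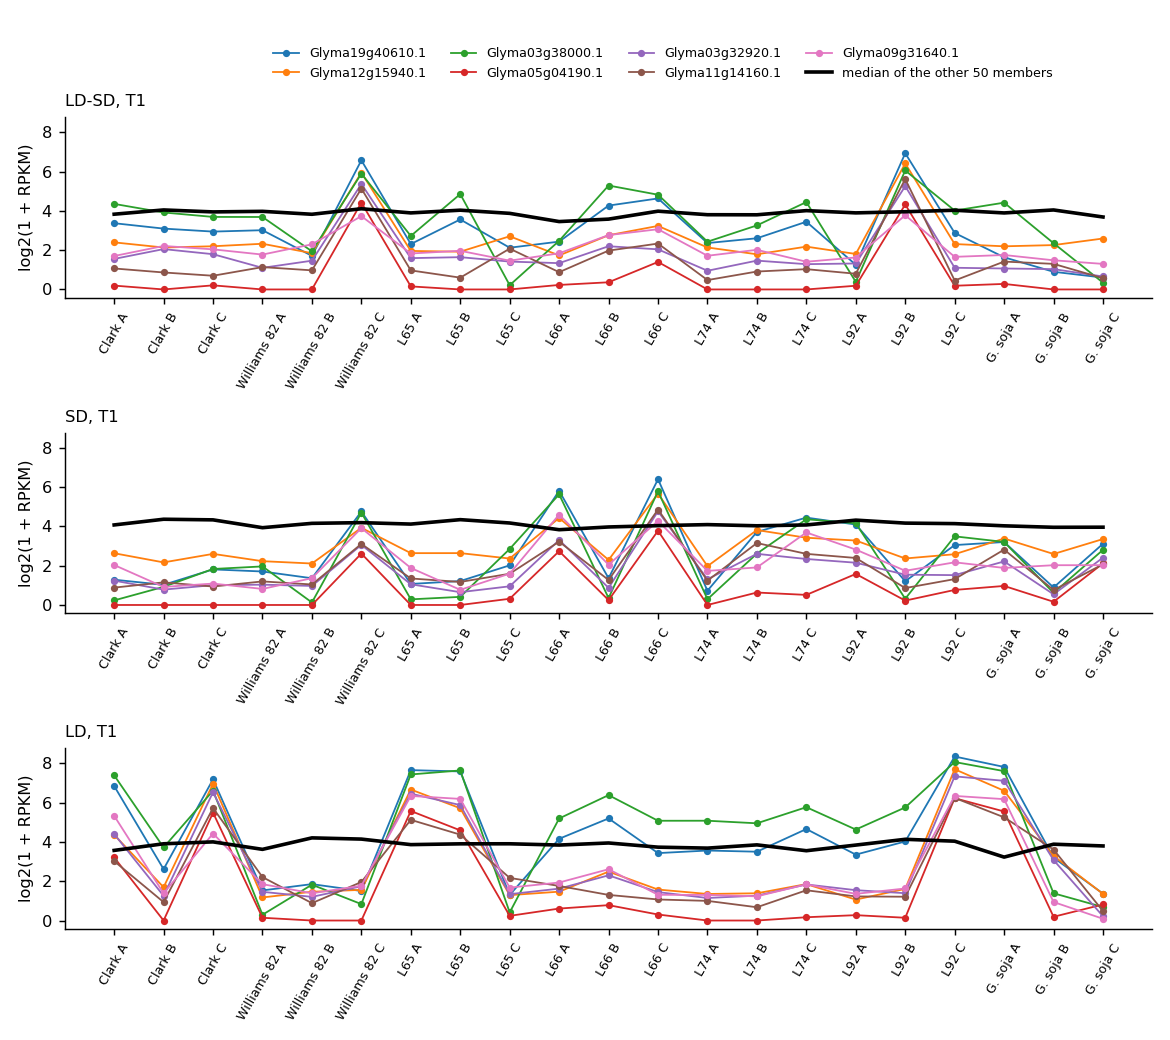
Level at T1 in each library of LD-SD, SD and LD, as log2(1 + RPKM), of the 7 members with uneven T1 values (coloured) and the median of the other 50 members (black). The coloured lines peak in the same libraries within each photoperiod, such as Williams 82 C and L92 B in LD-SD, while the black line stays nearly level.

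The same libraries were high in all of the 7 members. In LD-SD they were replicate C of Williams 82, B and C of L66 and B of L92, under SD replicate C of Williams 82 and A and C of L66, and under LD replicates A and B of L65, C of L92 and A of *G. soja*, each among the 5 highest for every one of the 7. Glyma03g32920.1 under LD had 161 RPKM in L92 C, 138 RPKM in *G. soja* A, 91.7 RPKM in Clark C, 87.0 RPKM in L65 A and 57.8 RPKM in L65 B, while the median of the 21 libraries was 2.08 RPKM. In LD-SD its values in Williams 82 C and L92 B were 40.4 and 37.3 RPKM, and the median was 1.76 RPKM.

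Replicates of one group could therefore differ widely in these 7 members. Glyma19g40610.1 under LD had 9.24 and 15.3 RPKM in L92 A and B and 326 RPKM in L92 C, and Glyma12g15940.1 had 1.09, 2.05 and 207 RPKM in the same 3 libraries. Of the libraries named, L65 A under LD is one of those whose genotype markers went against the label. The libraries among the 5 highest for all 7 members had 5.01 to 12.2 M mapped reads, inside the range of all libraries. Clark C under LD, among the 5 highest for 5 of the 7, had 12.6 M. What set the high libraries apart was not tested. In LD-SD 3 of the 7 were higher at T1 than at T3 and T5, against 46 of the other 50.

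The coefficient of variation over the 21 T1 libraries had a median of 202% in LD-SD and 154% under SD in the 7 uneven members, against 20.1% and 19.6% in the other 50. Under LD, where the split was made, the medians were 164% and 22.9%. Without the 7, 31 members were higher and 12 lower under SD than under LD at T1, and 21 were higher and 15 lower in LD-SD than in LD.

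Members of one locus share sequence, and how reads matching several transcripts were counted is not given in the sources used here, so values of transcripts of 1 locus are not independent. Of the 43 loci, 33 had 1 member and 10 had more, up to the 4 transcripts of Glyma14g07160. Within these 10 loci the highest T1 mean was at most 1.05 (Glyma18g04081) to 2.82 (Glyma06g43590) times the lowest in any treatment. Just 3 further transcripts were listed for the 43 loci, of which 1 peaked at T1 in both photoperiods below the margin and 2 had another peak. Counted as 1 transcript a locus, 36 of 43 members were higher at T1 than at T3 and T5 in LD-SD. The members ranged from 741 to 4383 nucleotides in length (median 2031), and their names placed them on 17 chromosomes.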

How the data were processed

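RNA-seq was made on 189 libraries in 63 groups of 3. The authors aligned reads with Bowtie to the Williams 82 transcriptome, counted them with their own script and deposited a single table of RPKM values per transcript. The Bowtie version and the rule for reads with several matches are not given in the sources used here. Of 73320 transcripts, 1 with an infinite value was left out and 1712 were at 0 in every library. Read numbers and transcript lengths were recovered from the steps in the low RPKM values, and the tests were made over libraries.

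Groups came from the labels. Values were taken as log2(RPKM + 1), transcripts with a mean under 0.1 RPKM in the libraries of a fit were left out, and limma 3.58.1 (R 4.3.3) was fitted with 1 mean per group and a trended prior, after a check on simulated data. The LD-SD day course and the genotype tests were fitted within a photoperiod, SD against LD on both, and contrasts of LD-SD with the others on all libraries. Adjusted p-values are Benjamini-Hochberg over all transcripts tested, with a threshold of 0.05. Among the alternatives were a smaller pseudocount (0.1), testing without a filter, a minimum of 1 RPKM, median-of-ratios or quantile scaling, a replicate block, other sample sets and other versions of the rule, and those leaving out the L92 library of unclear letter or counting 1 transcript a locus were chosen after seeing the data. The comparisons of photoperiods at T3 and T5, the interaction under SD and LD and *G. soja* against *G. max* under SD and LD were added after seeing the data, with all of their alternatives.

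The members and lists were chosen with earlier results of these data known. Members are named if they are among the 6 with the largest smaller margin (1 a locus) or the 4 most abundant at T1 in LD-SD, if they hold 1 of the 2 largest differences in each direction past the threshold with the same sign in the 7 genotypes (for F-tests, 1 of the 2 smallest adjusted p), or if they lie next to the margin. Other members are named after their values were seen. Lists of clock, light and flowering genes could not be applied, because no locus name matched the RefSeq table. Data were handled in Python 3.11.15 with numpy 2.4.6, pandas 2.3.3 and matplotlib 3.10.9, and read into R with the data.table package (version 1.17.8).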

Additional observations from a re-analysis of the deposited data

Results flagged for a closer look

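In 3 members the day course differed among the 7 genotypes by the limma interaction test. Under SD this was Glyma18g03870.1 (adjusted p = 0.00647, Benjamini-Hochberg over all transcripts tested). At T3 it had 1.38, 1.22 and 0.926 RPKM in *G. soja* and 3.94, 3.61 and 2.63 RPKM in Williams 82, and its T1 levels were lowest in *G. soja* as well. The limma adjusted p was 0.565 with a pseudocount of 0.1, 0.20 to 0.66 without each replicate letter, 0.21 without *G. soja* and 1.0 with all libraries in 1 fit.

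Under LD these were Glyma06g43590.3 (limma adjusted p = 0.00198) and Glyma06g43590.2 (limma adjusted p = 0.00887), transcripts of 1 locus that may share reads. In each the T5 level of *G. soja* lay below all 18 *G. max* libraries. Without *G. soja* the adjusted p was 0.85 for Glyma06g43590.3 and 1.0 for Glyma06g43590.2 (limma), without replicate B it was 0.54 and 0.64, without replicate C 0.50 and 0.79, and with all libraries in 1 fit 0.054 and 0.23.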

How the results depend on the processing

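The differences for which members were named by the rules above kept their sign under every alternative. Counts were compared by size alone, so a change of direction was not looked for in them. Under the alternatives 297 counts were similar to the main one, 37 were clearly larger and 36 clearly smaller. The count of members higher at T1 than at T3 and T5 in LD-SD, 49, was 42 to 47 when 1 replicate letter was left out. The ranges on leaving out 1 letter were 43 to 48 for T1 against T3 and 51 to 52 for T1 against T5. For SD against LD they were 37 to 44, 43 to 47 and 41 to 42 members at T1, T3 and T5, for LD-SD against LD 32 to 40, 44 to 47 and 28 to 33, and for LD-SD against SD 11 to 22, 23 to 26 and 21 to 31. Counts of members that differed among genotypes were 2 to 5 under SD, 4 to 10 under LD and 0 to 1 in LD-SD, those with an interaction 0 to 0, 0 to 3 and 0 to 0, and those that differed between *G. soja* and *G. max* 5 to 17, 8 to 13 and 0 to 1.

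The replicate letters do not pair the samples by design. Deviations of libraries that share a letter, compared at 1 time point of 1 photoperiod, correlated at 0.187 on average (lowest −0.361, over 0.1 in 376 of 561 pairs), those with different letters at −0.092, and 150 of 188 libraries were closest to their own letter, so standard errors averaged over genotypes may be too small. With the replicate block the counts were 45 for LD-SD against SD at T5, 24, 27 and 14 for genotypes under SD, LD and in LD-SD, 3, 10 and 2 for the interaction, and 7 for *G. soja* against *G. max* in LD-SD. In this fit the library of unclear letter formed a block of its own, so its deviation left the residual spread. It stayed in the means averaged over genotypes but cancelled in contrasts among genotypes. The T1 minus T5 difference of Glyma11g25860.1 in LD-SD was 4.245 in both fits, with a standard error of 0.0746 in place of 0.2089. How far this library moved the LD-SD counts of the block fit was not tested.

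Members chosen with a pseudocount of 0.1 numbered 100 and included all 57. Of these, 79 were higher at T1 than at T3 and T5 in LD-SD, 80 differed from T3 and 93 from T5, with 78, 73 and 73 for SD against LD at T1, T3 and T5, 76, 80 and 55 for LD-SD against LD, and 50, 53 and 45 for LD-SD against SD. For *G. soja* the counts were then 31, 39 and 10 under SD, LD and in LD-SD, and for genotypes 27 under LD and 6 in LD-SD.

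Genotype results moved most. With all libraries in 1 fit, 0, 8 and 24 members differed among genotypes under SD, LD and in LD-SD, 0, 0 and 1 had an interaction, and *G. soja* differed in 5 under SD and 4 in LD-SD. With a pseudocount of 0.1 in the test, 6 differed among genotypes under SD, 0 had an interaction there, and *G. soja* differed in 7, 10 and 2. Without *G. soja*, 1, 3 and 0 differed among genotypes and 0 had an interaction under SD or LD. In LD-SD, genotypes gave 1 with no filter, 6 without the 9 libraries of doubtful label and 7 without that of unclear letter, which also gave 1 interaction. *G. soja* in LD-SD gave 2 with median-of-ratios or quantile scaling, 3 with members chosen on mean log values or without doubtful labels, and 4 without the unclear letter. With 1 transcript a locus, *G. soja* differed in 10 under SD and 1 interaction was left under LD. The cause of these shifts was not tested.

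At the low points 3 reads or fewer were common, so differences between low values are loosely known, and the RPKM table does not show which transcript of a locus the reads came from.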
